A study of Mus musculus with 5 samples.

Results

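Imprinted growth regulators are genes that are read mainly from the copy inherited from the mother or mainly from the copy inherited from the father, and that set how much a tissue grows. In this set of 10 genes, Igf2, Dlk1, Peg3, Ndn, Plagl1 and Mest are read from the paternal copy in most tissues, and H19, Cdkn1c and Igf2r from the maternal copy. Grb10 is maternal in most tissues and paternal in neurons. Many of the paternal genes favour growth, and several maternal ones hold it back: Igf2 is a growth factor, Igf2r removes that factor from the cell surface, Cdkn1c blocks the cyclin-dependent kinases, and Grb10 dampens signalling from the insulin and IGF receptors. In the adult subventricular zone, the neurogenic niche beside the lateral ventricles, Igf2, Dlk1 and Cdkn1c are known for their part in keeping neural stem cells. The genes were taken by symbol from the per-gene tables of 5 libraries, in which 11 of 46078 gene identifiers carried one of the 10 symbols. The additional identifier was a second copy of Dlk1 on an alternate contig, listed at 0 in every library, and the other copy was used. All values are sums over both parental copies, because a level per gene does not separate alleles.

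The libraries came from neural precursor cells (NPC) that the labels assign to adult female C57BL/6 mice of 5 to 8 weeks with no mutation, grown on PDL-coated plates and given PBS as a sham for hydrogen peroxide. RNA was taken 1 h later in 2 libraries (replicates 1 and 2) and 8 h later in 3 libraries (replicates 13, 14 and 15). The study's methods give an older age, state that the subventricular zone cells were expanded as spheres before use, and define a replicate as a single animal, so each group describes cultured cells and not the niche itself. All groups received PBS, and no untreated cells were analysed here.

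Library identifiers in the labels fall into a 100 series and a 200 series, called series 1 and series 2 here, with no explanation of them in the sources used here. By these labels, series 1 holds both 1 h libraries and 8 h replicate 14, and series 2 holds 8 h replicates 13 and 15. Series 2 therefore holds no 1 h library. The names of the 8 h TPM tables and of the 8 h columns of a read count table did not all match, as given below. The series of each 8 h TPM table thus rests on its label alone. The labels call every mouse female, yet the 3 series 1 libraries expressed the Y-linked genes Ddx3y, Eif2s3y, Kdm5d and Uty and had Xist at 0.061 TPM or less, whereas the series 2 libraries had Xist at 165 and 200 TPM and the Y-linked genes at or near 0. A total of 10 marker genes of neural stem and precursor cells summed to between 12690 and 16773 TPM, led by Fabp7 with a mean of 8582 TPM, so the markers of the labelled cell type were present. Of the markers of other cell types, those of neurons summed to between 216 and 467 TPM, mostly Map2, and those of ependymal cells to between 16.3 and 27.5 TPM, mostly Foxj1. The 6 microglia markers summed to at most 1.49 TPM, the 8 choroid plexus markers to at most 5.46 TPM and the 6 endothelial markers to at most 15.4 TPM, and Ttr, Folr1, Tmem119, Aif1, Cldn5 and Cdh5 were at 0 in every library.

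Several members also carry or sit beside small regulatory RNAs, and their sequences are shown first because the host genes give the results below. Mest hosts miR-335 in an intron, H19 is the precursor of miR-675, and Igf2 hosts miR-483. Poly-A selected libraries do not measure mature miRNAs, so no level is given for them. The mature sequences are from RefSeq on GRCm38.p6, with the seed, bases 2 to 8, in capitals. Those in Mest lie on the plus strand at chr6:30741314-30741336 and chr6:30741354-30741375. Those in H19 lie on the minus strand at chr7:142577112-142577133 and chr7:142577078-142577099, and those in Igf2 on the minus strand at chr7:142654968-142654989 and chr7:142654932-142654952.
mmu-miR-335-5p: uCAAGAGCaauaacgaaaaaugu
mmu-miR-335-3p: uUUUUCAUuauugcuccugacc
mmu-miR-675-5p: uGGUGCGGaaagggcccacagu
mmu-miR-675-3p: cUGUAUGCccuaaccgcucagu
mmu-miR-483-5p: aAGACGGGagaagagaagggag
mmu-miR-483-3p: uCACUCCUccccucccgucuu
No seed was shared among these 6 mature miRNAs, and none was shared with another mouse miRNA in the RefSeq table.

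Promoters were read for the 3 members that differed most clearly between the library series: Dlk1, Mest and Plagl1. Each window covers 250 bases before and 50 bases after a RefSeq start site on GRCm38.p6, with CpG dinucleotides, the sites at which imprinted promoters can carry DNA methylation, in capitals. Methylation itself was not measured. The Dlk1 window lies on the plus strand at chr12:109452573-109452872 and spans the start of the gene. Those of Mest (chr6:30737800-30738099) and Plagl1 (chr10:13090582-13090881), also on the plus strand, lie inside the annotated spans of their genes, at starts downstream of the first one.
Dlk1 promoter: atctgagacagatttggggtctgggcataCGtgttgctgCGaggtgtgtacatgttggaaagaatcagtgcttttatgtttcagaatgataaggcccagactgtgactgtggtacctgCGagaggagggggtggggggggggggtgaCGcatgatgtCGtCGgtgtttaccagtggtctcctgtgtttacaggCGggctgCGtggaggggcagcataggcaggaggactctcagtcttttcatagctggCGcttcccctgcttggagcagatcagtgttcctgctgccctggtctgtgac
Mest promoter: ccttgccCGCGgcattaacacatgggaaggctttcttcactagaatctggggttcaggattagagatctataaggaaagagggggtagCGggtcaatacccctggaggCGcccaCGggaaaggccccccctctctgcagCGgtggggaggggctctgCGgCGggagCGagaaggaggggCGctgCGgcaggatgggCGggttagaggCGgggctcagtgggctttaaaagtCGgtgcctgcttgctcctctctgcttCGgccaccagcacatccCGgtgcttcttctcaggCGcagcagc
Plagl1 promoter: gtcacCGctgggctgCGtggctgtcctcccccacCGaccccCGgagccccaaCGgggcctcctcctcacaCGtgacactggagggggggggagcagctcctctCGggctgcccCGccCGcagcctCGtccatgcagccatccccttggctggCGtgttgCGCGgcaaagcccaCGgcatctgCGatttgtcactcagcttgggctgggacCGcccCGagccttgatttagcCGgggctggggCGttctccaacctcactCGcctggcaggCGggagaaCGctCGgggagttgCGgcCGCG
The Dlk1 window held 9 CpG dinucleotides, the Mest window shown 17 and the Plagl1 window 26, against a median of 7 over 32851 mouse promoter windows of the same length. A Mest window at another start site, chr6:30733256-30733555, held 8. A RefSeq window was found for 8 members, all except H19 and Cdkn1c, and for 14 start sites in all. At least 10 CpG dinucleotides were present in 9 of these 14 windows, against 43.5% of all windows, and the range ran from 2 in an Igf2 window to 45 in a Grb10 window. These windows are not independent, since some are of the same gene, and the Mest windows at chr6:30737800-30738099 and chr6:30737803-30738102 overlap almost fully. Counted by gene, 7 of the 8 members had at least 1 such window. The palindrome GGGGCCCC, a core of the motif described for the zinc finger factor that Plagl1 encodes, occurred in 1 of the 14 windows, that of Peg3, and in 1.08% of all windows. TATAAA, searched on both strands, occurred in 0 of the 14 and in 13.6% of all windows.

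The levels of the members spanned a wide range in these cells. Levels are given as TPM, a gene's share of the transcripts of a library, which corrects for gene length and allows genes to be compared within a library. Mest, which encodes a hydrolase-like membrane protein of the endoplasmic reticulum, was by far the highest member, with a mean of 651 TPM over the 5 libraries and rank 194 of all genes. Peg3, a zinc finger protein, followed with a mean of 59.7 TPM, and Ndn, a growth-suppressing MAGE protein, with 43.6 TPM. Igf2r had a mean of 14.3 TPM, Plagl1 10.1 TPM, Grb10 5.62 TPM, H19 2.63 TPM, Dlk1 2.41 TPM and Cdkn1c 2.24 TPM. Igf2 was lowest, with a mean of 0.330 TPM. The ranges of neighbours in this order overlapped for Igf2r and Plagl1, for H19 and Dlk1, and for Dlk1 and Cdkn1c. Igf2r was nevertheless above Plagl1 in each of the 5 libraries, whereas H19 exceeded Dlk1 in 3 of 5 and Dlk1 exceeded Cdkn1c in 3 of 5, so the order of those last genes was not resolved.

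**Figure D1:**
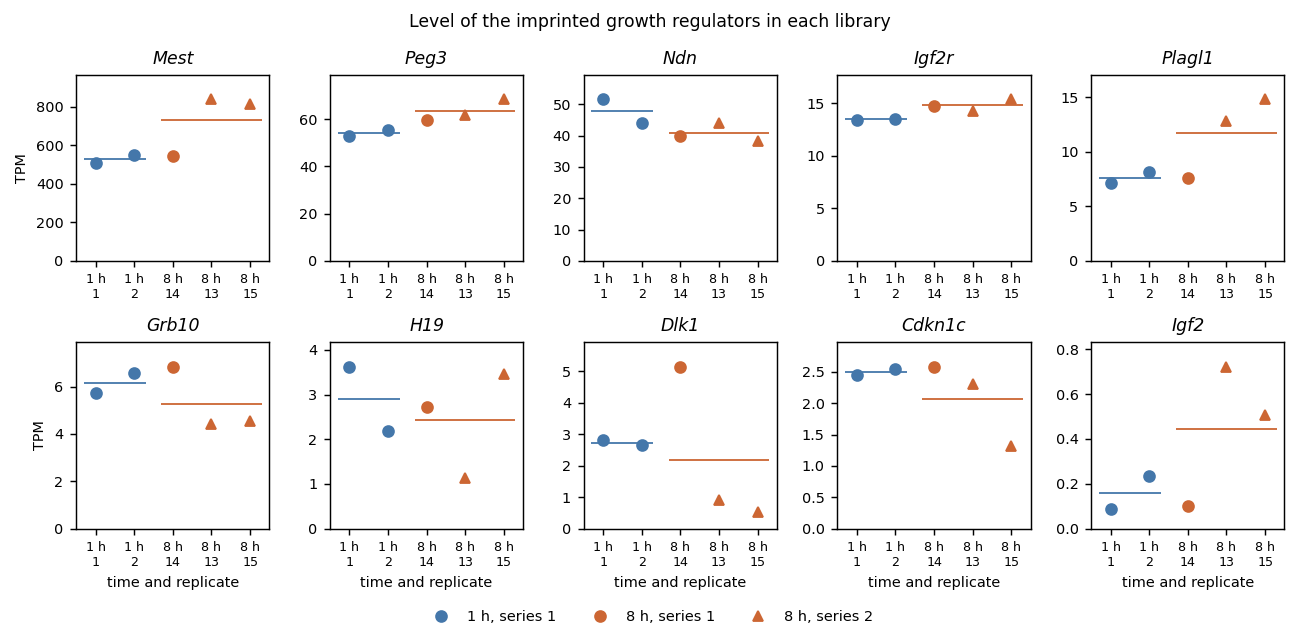
TPM of each member (vertical axis, from 0) in each library (horizontal axis: time and replicate). Circles are series 1 and triangles series 2, blue is 1 h and orange 8 h, and lines are group means; 8 h replicate 14 lies with the 1 h libraries for Mest (545 TPM) and Plagl1 (7.61 TPM), away from the other 8 h libraries.

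The comparison of 8 h with 1 h asked whether the members changed with the time after the sham exposure. No member was called in either direction. Limma on log2(TPM + 1), where a call needed an adjusted p no higher than 0.05 together with a difference above 1 in either direction, called 0 of the 9 members that had a mean of at least 1 TPM, against 0.0433% of all 13870 genes tested. The adjusted p of the 9 members ranged from 0.42 to 0.77, and 0 of them had an unadjusted p under 0.05, against 12.3% of all genes. Their median difference was -0.21 on the log2(TPM + 1) scale, where that of all genes was 0.10. Median-ratio scaling moved the median of all genes to -0.0042, and no member changed direction under it.

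The regulators of IGF signalling were taken first. Igf2, the ligand, was listed at 0.0863 and 0.233 TPM in 1 h replicates 1 and 2, and at 0.723, 0.101 and 0.508 TPM in 8 h replicates 13, 14 and 15. Its groups overlapped, its mean coverage stayed below 1 read per base in every library (at most 0.798), and it did not pass the filter on low values, so it was tested only in the fit with no filter (0.29 ± 0.21, limma adjusted p = 0.62). Igf2r, whose receptor carries Igf2 to the lysosome, was at 13.4 and 13.5 TPM at 1 h and at 14.2, 14.8 and 15.4 TPM at 8 h. Its 8 h libraries all lay above the 1 h ones, by a difference of 0.13 ± 0.12 (SE) in log2(TPM + 1), with an adjusted p of 0.60 by limma. Grb10, the adaptor that inhibits the insulin and IGF1 receptors, was at 5.72 and 6.56 TPM at 1 h and at 4.42, 6.84 and 4.57 TPM at 8 h. Its lowest values were those of 8 h replicates 13 and 15, its highest that of 8 h replicate 14, and the groups overlapped (difference -0.21 ± 0.21, limma adjusted p = 0.64).

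Among the members that act on the cell cycle and on growth-related transcription, Cdkn1c, the p57 inhibitor of cyclin-dependent kinases, was at 2.45 and 2.54 TPM at 1 h and at 2.31, 2.59 and 1.32 TPM at 8 h. Only 8 h replicate 15 stood away from the other libraries, and the difference was -0.21 ± 0.24 (limma adjusted p = 0.67). Plagl1, a zinc finger transcription factor that can halt the cell cycle, was at 7.09 and 8.17 TPM at 1 h and at 12.8, 7.61 and 14.8 TPM at 8 h. Its 8 h replicates 13 and 15 exceeded every other library, and 8 h replicate 14 lay between the 1 h values. The difference of 0.52 ± 0.28 was within the spread of the 8 h libraries (limma adjusted p = 0.45). Peg3 was at 52.7 and 55.5 TPM at 1 h and at 61.8, 59.7 and 68.5 TPM at 8 h, with every 8 h library above every 1 h library (0.22 ± 0.10, limma adjusted p = 0.42). Ndn was at 51.7 and 43.91 TPM at 1 h and at 43.89, 39.9 and 38.3 TPM at 8 h. Its groups were separated only by the gap between 43.91 and 43.89 TPM (-0.22 ± 0.12, limma adjusted p = 0.46).

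The remaining members are the stem cell ligand Dlk1, the long noncoding RNA H19 and Mest. Dlk1 was at 2.81 and 2.66 TPM at 1 h and at 0.906, 5.15 and 0.517 TPM at 8 h. The 8 h group held both the highest and the lowest values of the series, a range of 9.96-fold, so its mean of 2.19 ± 2.57 TPM (SD, n = 3) described none of its libraries. The low end of that range rests on few reads, with a mean coverage of 0.973 and 0.687 reads per base in 8 h replicates 13 and 15. The difference was -0.52 ± 0.60 with a limma adjusted p of 0.67. H19, which restrains growth in the embryo, was at 3.63 and 2.19 TPM at 1 h and at 1.13, 2.72 and 3.46 TPM at 8 h, with full overlap between the groups (-0.23 ± 0.36, limma adjusted p = 0.77). Mest was at 507 and 548 TPM at 1 h and at 841, 545 and 815 TPM at 8 h. The group means were 528 ± 29.1 TPM (SD, n = 2) and 734 ± 164 TPM (SD, n = 3), and the difference of 0.45 ± 0.21 did not pass (limma adjusted p = 0.42).

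In total, the 8 h libraries lay wholly above the 1 h libraries for 2 of the 9 members tested (Peg3 and Igf2r), against 23.7% of all genes, and wholly below for 1 (Ndn), against 9.43%. Each of these shares was near that of all genes. Fewer cells of a type and less RNA per cell cannot be told apart in such bulk libraries.

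Several members divided the libraries by series, as many genes did. Both series 2 libraries lay above all 3 series 1 libraries for 3 of the 9 members tested (Mest, Plagl1 and Peg3), against 39.8% of all genes, and below them for 3 (Dlk1, Grb10 and Cdkn1c), against 13.5% of all genes. Igf2, which was not tested, also lay above in series 2. To separate the series from time, limma was fitted with both terms. This comparison was added after the division had been seen, and it rests on a single library, 8 h replicate 14, for the part of time. The series of that library is known from its label only, and the 8 h names of the TPM tables and count columns did not all match. Between the series, an adjusted p of at most 0.05 was reached by 3 of the 9 members, against 9.09% of all genes, and 1 of the 9 also exceeded the fold threshold, against 4.02%. Dlk1 was the member called, lower by -1.85 ± 0.24 in log2(TPM + 1) in series 2 (limma adjusted p = 0.013). Its mean was 3.54 TPM in series 1 and 0.712 TPM in series 2, a ratio of 4.98. Its mean coverage was 3.51 to 5.01 reads per base in series 1. It was only 0.973 and 0.687 in 8 h replicates 13 and 15, so the series 2 values are low ones. Plagl1 was higher in series 2 by 0.78 ± 0.17 (limma adjusted p = 0.046), with means of 7.62 and 13.8 TPM. Mest was higher in series 2 by 0.60 ± 0.10 (limma adjusted p = 0.022), with means of 533 and 828 TPM. Grb10 had a difference of -0.51 ± 0.17 (limma adjusted p = 0.13), and Igf2r one of 0.0043 ± 0.13 (limma adjusted p = 0.99).

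When the fit included the series, the time differences of most members became smaller or turned, while that of Ndn went from -0.22 to -0.25. The difference of 8 h from 1 h was 0.046 ± 0.097 for Mest and -0.00091 ± 0.17 for Plagl1, and it turned from negative to positive for Dlk1 (0.72 ± 0.24), Grb10 (0.14 ± 0.17) and Cdkn1c (0.038 ± 0.27). None of the 9 members was called in that fit, and the lowest adjusted p, that of Dlk1, was 0.45 by limma. Without 8 h replicate 14, time and series coincide, and Dlk1 was then called lower at 8 h (-1.14 ± 0.20, limma adjusted p = 0.018), against 4.1% of all genes. In that fit Plagl1 and Mest reached adjusted p values of 0.017 and 0.0072 by limma with differences of 0.78 and 0.65, below the fold threshold. Time and series cannot be told apart in those values.

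**Figure D2:**
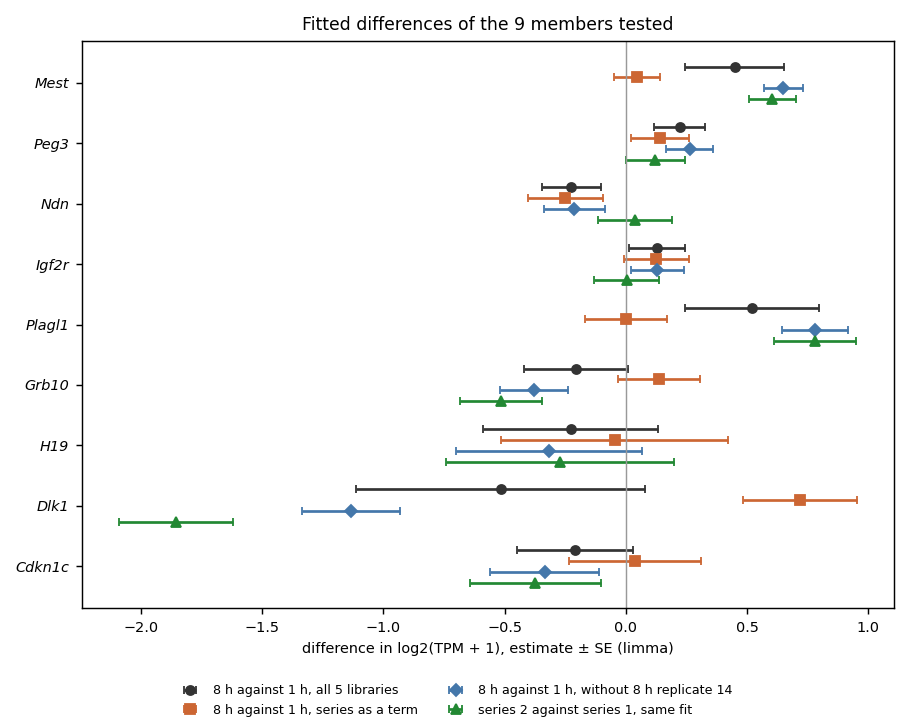
Fitted difference in log2(TPM + 1) with its SE (horizontal axis) for the 9 members tested (vertical axis), under 4 limma fits given in the legend. For Dlk1 the estimate of 8 h against 1 h runs from -1.14 without 8 h replicate 14 to 0.72 with the series as a term, and the series difference is -1.85.

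Other measures moved with the series and stand beside these values. The markers of neural stem and precursor cells summed to between 12690 and 13847 TPM in series 1 and to 15408 and 16773 TPM in series 2. Among these 10 genes, 7 were higher in both series 2 libraries than in all of series 1, Nes was lower, and Sox2 and Olig1 overlapped. Over all genes, 39.8% were higher and 13.5% lower in this way. The 10 markers of meningeal fibroblasts and pericytes summed to between 9.02 and 11.1 TPM in series 1 and to 26.2 and 25.7 TPM in series 2, which was mostly Ptgds, with Lum, Foxd1 and Slc6a13 at 0 throughout. The 6 neuronal markers, led by Map2, summed to between 278 and 467 TPM in series 1, highest in 8 h replicate 14, and to 216 and 243 TPM in series 2. Of these 6 genes, Map2, Tubb3 and Syt1 were lower in both series 2 libraries than in all of series 1, against 13.5% of all genes. Snap25 was higher, against 39.8%, and Dcx and Rbfox3 overlapped. The sex-linked genes divided the libraries in the same way. The part of these in the members' values was not tested, and sex and series cannot be told apart.

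Imprinted genes lie in clusters under shared control elements, and the neighbours of the members were therefore examined in each library. In the cluster of Dlk1 on chromosome 12, the maternal noncoding RNAs Meg3 (109541001 to 109571726) and Rian (109603940 to 109661716) had the same order of series as Dlk1 (109452823 to 109463336). Meg3 was at 2.97 and 2.66 TPM at 1 h and at 1.44, 3.60 and 1.45 TPM in 8 h replicates 13, 14 and 15. Rian was at 6.42 and 4.87 TPM at 1 h and at 2.25, 8.05 and 2.64 TPM at 8 h. Both were thus lowest in the series 2 libraries and highest in 8 h replicate 14, as was Dlk1. As background, in most tissues Dlk1 is read from the paternal copy and these RNAs from the maternal one. Which copy was read in these cells was not measured. The series difference was -1.40 ± 0.21 for Rian (limma adjusted p = 0.020) and -0.91 ± 0.20 for Meg3 (limma adjusted p = 0.049). Begain, which lies outside the region between Dlk1 and Rian, ranged from 1.00 to 1.86 TPM with full overlap of the series, and Rtl1 and Dio3 were at 0 in every library. These genes were singled out after their values were seen.

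Neighbours of the other members, likewise named with their values known, gave mixed results. Copg2 overlaps the end of Mest on the opposite strand of chromosome 6. It was at 44.1 and 39.5 TPM at 1 h and at 40.5, 42.3 and 42.5 TPM at 8 h. The difference seen in Mest was absent from Copg2. Around Ndn, Snrpn was lower in series 2, at 82.0 and 80.4 TPM against 107 to 112 TPM in series 1, and Peg12 was higher, at 81.1 and 82.7 TPM against 48.9 to 54.8 TPM. The series difference of Peg12 was 0.70 ± 0.12 (limma adjusted p = 0.026), whereas that of Ndn was 0.037 ± 0.15 (limma adjusted p = 0.91). Airn, the noncoding RNA that runs antisense to Igf2r, ranged from 3.21 to 5.62 TPM. Reads of such antisense pairs, Copg2 and Mest included, may not have been separated. The sources used here do not give the strand setting of the tables. In the H19 and Cdkn1c region of chromosome 7, Cd81 (787 to 913 TPM) and Nap1l4 (214 to 256 TPM) were high, while Ascl2, Phlda2, Kcnq1 and Kcnq1ot1 stayed below 1 TPM and Ins2 and Th were at 0.

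**Figure D3:**
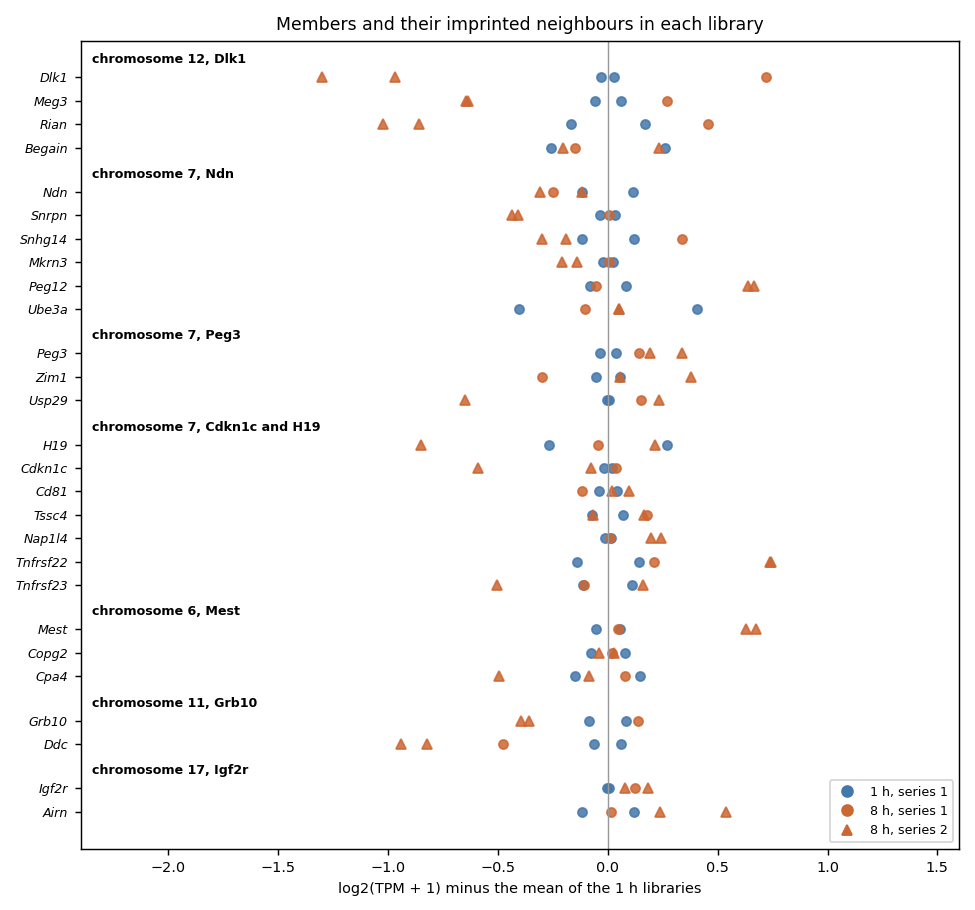
Members and imprinted neighbours with a mean of at least 1 TPM, grouped by chromosome region (vertical axis), plotted as log2(TPM + 1) minus the mean of the 1 h libraries (horizontal axis). Triangles, the series 2 libraries, lie to the left for Dlk1, Meg3 and Rian and to the right for Mest and Peg12, and 8 h replicate 14 lies to the right for Dlk1, Meg3 and Rian.

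Across 34 neighbours found in the tables, 19 passed the filter on low values and 0 were called between 8 h and 1 h. Their median difference was -0.040 in log2(TPM + 1), against 0.10 for all genes. Of the 19, 2 had an unadjusted p under 0.05, against 12.3% of all genes. Ddc, an aromatic amino acid decarboxylase gene next to Grb10, was at 1.56 and 1.79 TPM at 1 h and at 0.393, 0.922 and 0.511 TPM at 8 h (-0.75 ± 0.22, limma adjusted p = 0.34). Tnfrsf22, a decoy receptor gene near Cdkn1c, was at 5.07 and 4.00 TPM at 1 h and at 8.17, 5.37 and 8.20 TPM at 8 h (0.56 ± 0.22, limma adjusted p = 0.40). Neither passed the test.

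Among 28 imprinted genes of other regions, 18 were tested, 0 were called and the median difference was -0.0085. The highest were Gnas (655 and 1281 TPM at 1 h), a G protein subunit gene, Nnat, a membrane protein gene of developing brain (154 and 218 TPM at 1 h), and Gatm, an enzyme gene of creatine synthesis (183 and 181 TPM at 1 h). Nnat was at 306 and 308 TPM in the series 2 libraries and at 148 TPM in 8 h replicate 14, with a series difference of 1.05 ± 0.20 (limma adjusted p = 0.035). Gatm was at 224 and 225 TPM in series 2 and at 179 TPM in 8 h replicate 14. Its series difference was 0.32 ± 0.09 (limma adjusted p = 0.092). Pon2, named after its values were seen, was at 97.1 and 100.8 TPM in series 2 and between 48.6 and 54.0 TPM in series 1. Over the 18 tested, both series 2 libraries lay above all of series 1 for 5 and below for 4, against 39.8% and 13.5% of all genes. An adjusted p of at most 0.05 for the series was reached by 2 of the 18 with limma, against 9.09% of all genes. The division by series was thus present in some imprinted genes outside the members' own regions, as in many genes. Trappc9 (-0.38 ± 0.14) and Blcap (0.24 ± 0.09) had an unadjusted p under 0.05 between 8 h and 1 h, as did 12.3% of all genes. Their limma adjusted p values were 0.39 and 0.40.

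The partners of the members were read from lists of their pathways. In the IGF and insulin axis, 15 of 18 genes were tested, 0 were called and the median difference was -0.028 in log2(TPM + 1). Beside Igf2, the other IGF ligand gene, Igf1, named with the receptor genes for its role and not by its values, was between 0.505 and 0.926 TPM. The receptor gene Igf1r was between 12.5 and 15.1 TPM and Insr between 16.7 and 21.4 TPM. Among the binding protein genes, Igfbp3 was between 1145 and 1449 TPM and Igfbp2 between 757 and 1219 TPM, whereas Igfbp5 was between 6.39 and 10.1 TPM and Igfbp6 was at most 0.0949 TPM, and the kinase gene Akt1 was between 187 and 197 TPM. Irs1, the receptor substrate, was at 16.0 and 16.5 TPM at 1 h and at 19.7, 21.7 and 20.5 TPM at 8 h (0.33 ± 0.11, limma adjusted p = 0.37). Igfbp4, named after its values were seen, was at 54.7 and 51.6 TPM in series 2 and between 9.96 and 15.0 TPM in series 1, a series difference of 2.30 ± 0.21 (limma adjusted p = 0.0062).

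Dlk1 is a noncanonical Notch ligand, and 7 of 10 Notch ligand and receptor genes were tested, with 0 called and a median difference of 0.12. Dll1, a canonical ligand, was at 73.1 and 87.3 TPM at 1 h and at 51.8, 46.0 and 45.8 TPM at 8 h. Its 8 h libraries all lay below the 1 h ones, irrespective of series (-0.73 ± 0.12, limma adjusted p = 0.24). Jag1 was at 16.6 and 14.4 TPM at 1 h and at 18.4, 23.9 and 20.8 TPM at 8 h (0.41 ± 0.15, limma adjusted p = 0.39). The receptors Notch1 (73.4 to 85.7 TPM) and Notch3 (26.1 to 44.4 TPM) were the highest of the list beside Dll1. Among 6 other inhibitors of cyclin-dependent kinases, 0 were called, and Cdkn1a (607 to 736 TPM), Cdkn2a (116 to 164 TPM) and Cdkn1b (69.5 to 90.4 TPM) were all far above Cdkn1c in TPM. Of 10 factors that maintain imprints, 8 were tested and 0 were called, with a median difference of 0.21. Trim28 (272 to 307 TPM), Dnmt1 (105 to 138 TPM) and Ctcf (78.4 to 104 TPM) were the highest, and Arid4a, a chromatin protein gene, was at 16.7 and 15.7 TPM at 1 h and at 24.0, 24.3 and 27.2 TPM at 8 h (0.60 ± 0.12, limma adjusted p = 0.26).

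Dlk1 was the only member whose log2(TPM + 1) ranged over at least 2 among the 5 libraries (2.02), and the genes with the closest centred profile were sought for it. Among the nearest were Rerg (distance 0.462) and S100a10 (0.483), by Euclidean distance of log2(TPM + 1) over 5 libraries. S100a10 was at 875 and 797 TPM at 1 h and at 417, 977 and 370 TPM in 8 h replicates 13, 14 and 15, with the lowest values again in series 2 and the highest in 8 h replicate 14. These profiles share the same 5 libraries, and the likeness is a description.

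A table of read counts covered 7599 genes and held 7 of the 10 members, and Igf2, Dlk1 and Mest were not analysed in it. Its columns did not all match the TPM tables under the same name. Each 1 h column was closest to its own table (69.1% and 69.8% of 6860 genes differed by no more than 0.1 log2). For the column named 8 h replicate 13 the closest was the table of 8 h replicate 14 (69.7%), for that named 8 h replicate 15 it was the table of 8 h replicate 13 (69.2%), and that named 8 h replicate 14 matched none above 41.0%. Values are therefore given by column name. Column totals ran from 13988166 to 18572154 counts.

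Between 8 h and 1 h, edgeR's quasi-likelihood test called 0 of the 7 members and 0 of 7590 genes (0%), and DESeq2 also called 0. None of the 7 had an unadjusted p under 0.05 with either tool. Over all genes, 199 of 7590 did with edgeR and 227 of 7599 with DESeq2. That is a small share, so 0 of 7 does not set the members apart. The adjusted p of the 7 members ranged from 0.97 to 0.98 with edgeR. Peg3 had 4359 and 5579 counts at 1 h and 6483, 5230 and 6378 counts in the columns named 8 h replicates 13, 14 and 15, which was 312 and 338 CPM (counts scaled to the column total) against 360, 361 and 343 CPM. Igf2r (1177 to 1672 counts) and Ndn (748 to 875 counts) were as even, and their log2 fold changes were 0.05 ± 0.10 and -0.24 ± 0.12. For counts, the value after ± is not a fitted SE. It is the size of the log2 fold change divided by the square root of the F statistic of edgeR's test. Ndn was lower in every 8 h column, at 46.7 to 51.7 CPM against 60.3 and 52.2 CPM. Plagl1 stood out in the column named 8 h replicate 15, with 614 counts (33.1 CPM) against 310 to 381 counts in the others (18.6 to 23.1 CPM).

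The lower members varied more between columns. Grb10 had 247 and 343 counts at 1 h and 397, 105 and 238 counts at 8 h, and its log2 fold change was -0.47 ± 0.43. Leaving out the column named 8 h replicate 14 gave -0.15, and leaving out that named 8 h replicate 13 gave -0.96 (edgeR adjusted p = 0.89 and 0.58). Cdkn1c had 48 and 62 counts at 1 h and 68, 152 and 56 counts at 8 h, with the high value in the column named 8 h replicate 14, which matched no TPM table. Its log2 fold change was 0.64 ± 0.59 with all columns and -0.10 ± 0.31 without that column (edgeR adjusted p = 0.97 and 0.93). H19 had 103 and 89 counts at 1 h and 85, 79 and 30 counts at 8 h, and its log2 fold change was -0.73 ± 0.52, or -0.34 ± 0.30 without the column named 8 h replicate 15.

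**Figure D4:**
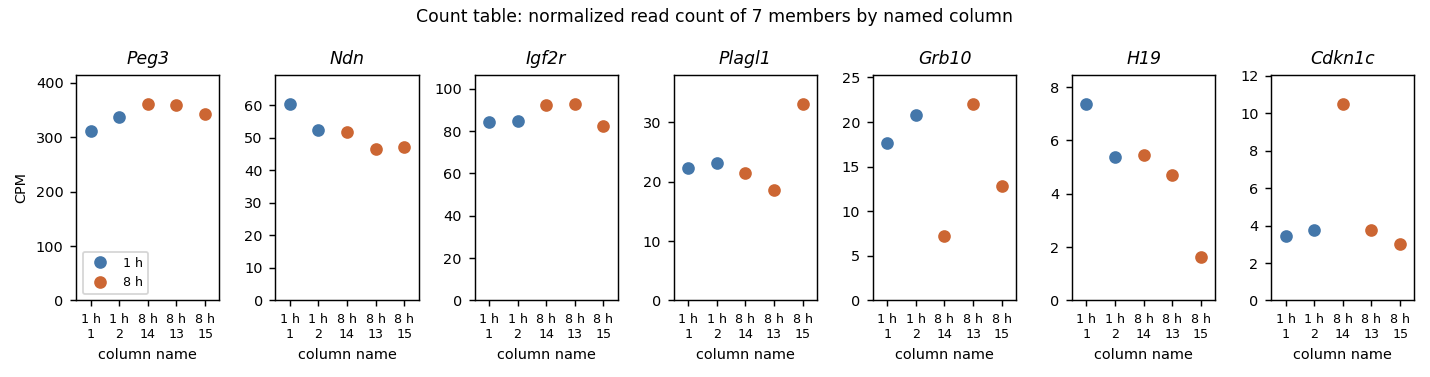
CPM of the 7 members listed in the count table (vertical axes, from 0) by the name of the column (horizontal axis), with 1 h in blue and 8 h in orange. Cdkn1c is highest (10.5 CPM) and Grb10 lowest (7.25 CPM) under the name 8 h replicate 14, and Plagl1 is highest (33.1 CPM) in that named 8 h replicate 15.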

How the data were processed

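RNA-seq of stranded, poly-A selected libraries was deposited for 5 sham samples. The authors aligned reads to GRCm38 with STAR through nf-core/rnaseq and counted them with featureCounts. The submitters' processing notes also name bcl2fastq 2.19.1.403. The deposited counts are whole reads per gene, without normalization, for part of the genes only. The deposited tables per library give TPM, FPKM and mean coverage (a per-base signal) as the authors computed them, in the layout of a StringTie gene abundance table, and the sources used here do not name the tool. Rows of a gene identifier were summed. FPKM and coverage served as a description of depth, since the ratio of coverage to FPKM moves with it. An upper percentile of that ratio over the rows of a library ran from 5.57 to 7.18 between libraries. Gene coordinates are those of the tables.

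Groups came from the labels. TPM was tested with limma 3.58.1 (intensity trend, log2(TPM + 1), mean of at least 1 TPM, R 4.3.3), a scale that understates changes of low genes. Counts were tested with edgeR 4.0.16 (quasi-likelihood, TMM, filterByExpr), with DESeq2 1.42.0 (alpha 0.1) as an alternative. Benjamini-Hochberg adjustment ran over all genes tested, and the fits were tested on simulated data. The simulated libraries held no series difference, so that test does not show how the fits behave with one. Calls needed an adjusted p no higher than 0.05 with a log2 fold change above 1 in either direction. Members, lists and tests were chosen with earlier results of these data known. Of each list, genes with an unadjusted p under 0.05 and the 3 highest genes are named, unless said otherwise. Where a symbol had several identifiers, that with the highest mean TPM was used. No column of values was left without a sample. A result of the likeness rule for Dlk1 is not reported here. Libraries of cells given hydrogen peroxide were not analysed here.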

Additional observations from a re-analysis of the deposited data

How the results depend on the processing

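Limma on TPM called 6 genes between 8 h and 1 h. The count was 19 with the library series as a term and 0 with no filter on low values, where 2371 of 23583 genes had an unadjusted p under 0.05. Leaving out 1 library gave from 0 to 568 genes. It was 568 when 8 h replicate 14 was left out and 1 for 8 h replicate 13. It was 0 for 1 h replicate 1 (773 genes at an unadjusted p under 0.05), for 1 h replicate 2 (670 such genes) and for 8 h replicate 15 (856 such genes). Members called ranged from 0 to 1 over these, the 1 being Dlk1 without 8 h replicate 14 (-1.14, limma adjusted p = 0.018), and were 0 under every other setting tried. With edgeR and DESeq2 on counts, 0 genes were called under every setting tried.

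Of the 90 TPM and 63 count differences of members recomputed under alternatives, 10 and 3 turned direction. With the series as a term, and equally within series 1 alone, Dlk1 was at 0.72, Cdkn1c at 0.038, Plagl1 at -0.00091 and Grb10 at 0.14, where the lone 8 h library of series 1 is assumed to vary like the 1 h libraries. With libraries left out in turn, H19 ran from -0.49 to 0.084 (0.040 without 1 h replicate 1, 0.084 without 8 h replicate 13). On counts with columns left out in turn, Cdkn1c ran from -0.095 (without that named 8 h replicate 14) to 0.95, and Plagl1 from -0.20 (without that named 8 h replicate 15) to 0.24. With the series as a term, Plagl1 was at -0.12, Cdkn1c at 1.51 and Grb10 at -1.44 (edgeR adjusted p = 0.98, 0.61 and 0.68), and the last was opposite in sign to its TPM value in that fit. The column named 8 h replicate 14, which matched no TPM table, alone separates time from series there. That named 8 h replicate 13, fitted as series 2, was closest to the TPM table of 8 h replicate 14, which is series 1 by its label. The count and TPM fits with the series may therefore group unlike libraries, and their values for Grb10 and Cdkn1c cannot be set against each other. Apart from the series settings and the left-out libraries, whose construction shows what differs, the cause was not tested. No paired analysis was possible because the groups share no replicate number.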
